A study of Mus musculus with 10 samples.

Results

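Phospholipases and the enzymes that rebuild phospholipids were followed in mouse lung as a group of 10 genes, chosen by name: Pla2g7, Pla2g4a, Pla1a, Pnpla7, Plcb2, Pld1, Pld3, Pld4, Lpcat2 and Aoah. The arrays measured all 10, out of 27670 genes, with 15 of the 41174 probes, and Lpcat2 is listed on the array under its older name Aytl1. Whole lungs of female BALB/c mice, an inbred strain, came from 5 animals that breathed cigarette smoke over 8 weeks and 5 kept in room air, 1 lung per Agilent whole mouse genome array. The mice were 6 to 8 weeks old on arrival, and the smoke group was exposed 2 times daily to 12 cigarettes, for 50 minutes each time and on 5 days of the week. Each array holds a red and a green channel, whereas the labels name 1 dye. Red was read as the lung and green as a reference RNA, because Ddx3y, a gene of the Y chromosome, cleared the background in green on all 10 arrays but in red on 2, and Sftpc, the surfactant gene that marks lung tissue, was brighter in red by 6.39 on the log2 scale. Each level is the log2 of lung over reference signal, so that a difference of 1 is a doubling, and they are not compared between genes because each probe has its own brightness. Every direction given here rests on that reading of the channels and on the scanner files as assigned to the samples. The deposited table of processed values has the groups exchanged against those files.

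Phospholipases cut membrane phospholipids at defined bonds. The A1 and A2 types release a fatty acid and leave a lysophospholipid, the C type releases the phosphorylated head group, and the D type leaves phosphatidic acid, while acyltransferases put a fatty acid back onto the lysophospholipid. In the lung these enzymes take part in the turnover of surfactant, which is mostly phospholipid and is cleared in part by alveolar macrophages, and in the formation and removal of lipid mediators such as platelet-activating factor (PAF) and the eicosanoids.

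With smoke, 9 of the 10 genes were higher and 0 were lower at an adjusted p under 0.05 in limma, against 4.95% of all genes higher and 3.27% lower. The exception was Pld4. The members were chosen with earlier results of these data known, so the comparison with all genes partly reflects that choice. All 10 were well above background in the lung channel on every array, whereas 5045 of the 27670 genes were so on none. With dim probes left out, 1402 of 19020 genes were higher and 947 lower. Fold changes of the 9 ran from 1.26 for Pld1 to 2.15 for Pld3, and 2 of the 10 (Pld3 and Pnpla7) exceeded 2-fold with an adjusted p under 0.05, against 0.625% of all genes. Without room air replicate 1 that number was 4, with Pla2g7 at 2.03-fold and Lpcat2 at 2.06-fold, and it was 5 with the scanner's log ratio, 5 with the lung channel alone scaled to its 75th percentile and 1 with median centring in place of loess (Pld3). The 5 smoke arrays all exceeded the 5 room air arrays for the same 9 genes, which held for 4.62% of all genes. The median log2 difference was 0.73 over the 10 genes and -0.0042 over all genes. On each of the 5 slides, which hold 1 smoke and 1 room air array, the 9 genes were higher on the smoke array. Whole lung was measured, so more cells that express a gene and more RNA per cell cannot be told apart.

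**Figure D1:**
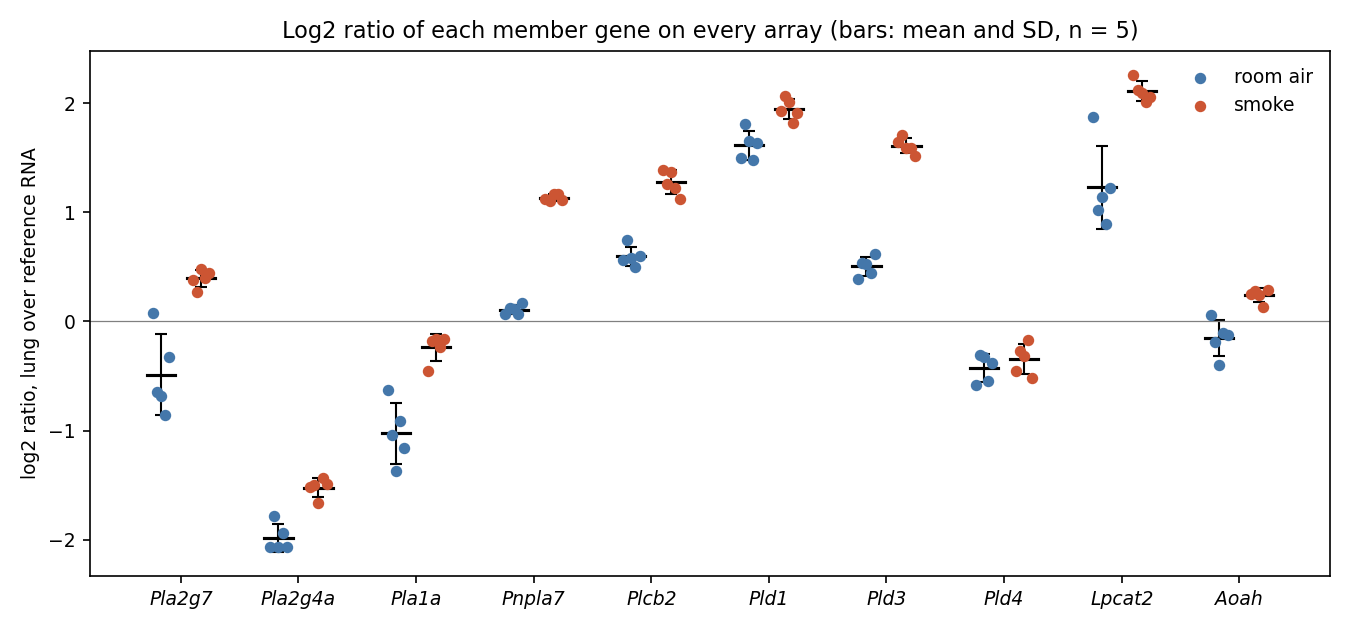
Log2 ratio of lung over reference RNA (vertical axis) for the 10 genes (horizontal axis) on each array, room air in blue and smoke in red, with the mean and SD of 5 arrays in black. The groups are apart for every gene except Pld4, and the room air points of Pla2g7 and Lpcat2 include 1 array that lies high, at 0.08 and 1.88.

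Among the phospholipases of the A types, Pla2g7 encodes the plasma PAF acetylhydrolase, which removes the acetyl group of PAF. Its log2 ratios were 0.08, -0.64, -0.68, -0.86 and -0.33 in room air replicates 1 to 5 and 0.38, 0.27, 0.48, 0.40 and 0.45 in smoke replicates 1 to 5. Room air replicate 1 was the highest of its group, and the smoke arrays lay close together above it. The means were -0.49 ± 0.37 and 0.39 ± 0.08 (SD, n = 5), a difference of 0.88 ± 0.15 (SE) and a fold change of 1.84 (95% interval 1.47 to 2.31, adjusted p = 0.00371). Its probe is shown because 1 probe carries the result for this gene. The 60 bases of the probe cover 3923 positions of chr17:41727663-41731585 (mm7, plus strand), so it reads across at least 1 exon junction.
Pla2g7 probe: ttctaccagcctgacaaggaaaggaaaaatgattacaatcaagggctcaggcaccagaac

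Pla2g4a, the cytosolic phospholipase A2 that releases arachidonic acid for eicosanoid synthesis, had log2 ratios of -2.07, -1.78, -2.07, -1.94 and -2.07 in room air and -1.52, -1.5, -1.67, -1.44 and -1.49 with smoke. The groups did not overlap, and the closest arrays were room air replicate 2 and smoke replicate 3. The difference was 0.46 ± 0.07 (SE), a fold change of 1.38 (1.24 to 1.53, adjusted p = 0.00171). A further probe of the gene gave 0.40 ± 0.09 (adjusted p = 0.0228). The call was lost with median centring in place of loess (0.36, adjusted p = 0.113) and with the lung channel alone scaled to its 75th percentile (0.45, adjusted p = 0.1).

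Pla1a, a phospholipase A1 specific for phosphatidylserine, forms lysophosphatidylserine. In room air its log2 ratios were -0.63, -1.04, -1.37, -0.91 and -1.16, and with smoke they were -0.46, -0.18, -0.16, -0.24 and -0.16. The highest room air array and the lowest smoke array were both replicate 1, on the same slide, where the difference was 0.17 against 0.67 to 1.21 on the other 4 slides. Over all arrays the difference was 0.79 ± 0.12 (SE), a fold change of 1.72 (1.43 to 2.07, adjusted p = 0.00221). With the lung channel alone, scaled to its 75th percentile, the difference was 1.44 (adjusted p = 0.0169), and with the scanner's log ratio it was 1.42 (adjusted p = 0.0109).

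Pnpla7, a patatin-like lysophospholipase that acts on lysophosphatidylcholine, varied least within the groups. Its log2 ratios were 0.06, 0.13, 0.12, 0.07 and 0.17 in room air and 1.12, 1.10, 1.17, 1.17 and 1.11 with smoke. The smoke arrays lay close together, far above the room air arrays. The means of 0.11 ± 0.04 and 1.13 ± 0.03 (SD, n = 5) differed by 1.02 ± 0.04 (SE), a fold change of 2.03 (1.91 to 2.17, adjusted p = 1.06e-07). The probe, shown as the measurement behind the most even response of the group, lies at chr2:25060752-25060983 (mm7, plus strand) and also crosses a junction, its 60 bases covering 232 positions.
Pnpla7 probe: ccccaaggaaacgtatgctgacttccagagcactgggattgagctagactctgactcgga

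Plcb2, a phospholipase C of the beta class found mainly in blood-derived cells, is activated by G proteins and cleaves phosphatidylinositol bisphosphate. On its brightest probe the log2 ratios were 0.56, 0.74, 0.58, 0.50 and 0.60 in room air and 1.39, 1.26, 1.37, 1.22 and 1.12 with smoke. Each smoke array exceeded each room air array, the nearest being smoke replicate 5 and room air replicate 2. The difference was 0.68 ± 0.06 (SE), a fold change of 1.60 (1.45 to 1.76, adjusted p = 9.37e-05).

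Plcb2 has 3 probes, more than any other of the 10 genes, and their sequences are shown so that the stretches measured can be told apart, all on the minus strand of chromosome 2 in mm7. The first lies at chr2:118449684-118449743, the second at chr2:118452987-118453046 and the third at chr2:118464583-118464642, which is the most upstream of them in the direction of transcription.
Plcb2 probe at 118449684: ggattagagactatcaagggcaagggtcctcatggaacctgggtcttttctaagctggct
Plcb2 probe at 118452987: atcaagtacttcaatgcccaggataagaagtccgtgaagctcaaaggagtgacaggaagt
Plcb2 probe at 118464583: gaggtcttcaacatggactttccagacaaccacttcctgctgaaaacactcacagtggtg
The second probe gave a difference of 0.56 ± 0.05 (adjusted p = 0.000105). The third was well above background in the lung channel on 4 of 5 room air arrays and 5 of 5 smoke arrays, but in the reference channel on 1 array of each group, so its ratio, with a difference of 0.13 ± 0.04 (adjusted p = 0.114), is poorly measured. In the lung channel alone, relative to its 75th percentile, the first and second probes differed by 0.98 and 1.21 in the order of the sequences. The third differed by 0.82, with SDs of 0.93 in room air and 0.69 with smoke and overlapping groups. Part of that spread lies between slides, since replicate 4 was the highest of both groups, at -3.72 and -3.25. On every slide the smoke array was the higher one in this channel. The log2 ratio of this probe was also higher with smoke on 5 of 5 slides, without overlap of the groups. The G+C content of the probes was 50%, 45% and 48.3% in the same order.

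Of the phospholipase D genes, Pld1 encodes the classical enzyme that splits phosphatidylcholine into phosphatidic acid and choline. Its log2 ratios were 1.5, 1.81, 1.65, 1.48 and 1.63 in room air and 1.92, 2.07, 2.01, 1.82 and 1.91 with smoke. Room air replicate 2 nearly reached smoke replicate 4, and the groups touched without overlapping. The difference was 0.33 ± 0.07 (SE), a fold change of 1.26 (1.13 to 1.40, adjusted p = 0.0161), the smallest among the 9 genes that passed. A further probe of Pld1 gave 0.17 ± 0.11 (adjusted p = 0.486), with overlapping groups. The call was lost when the probes were averaged (0.25, adjusted p = 0.0975), with median centring (0.23, adjusted p = 0.249) and with the lung channel alone scaled to its 75th percentile (0.42, adjusted p = 0.111).

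Pld3 and Pld4 belong to the same family by sequence but are known as endolysosomal exonucleases that degrade single-stranded nucleic acids. Pld3 had log2 ratios of 0.39, 0.54, 0.53, 0.45 and 0.62 in room air and 1.64, 1.71, 1.59, 1.59 and 1.52 with smoke. The groups were far apart on every slide, by 0.90 to 1.25. The means of 0.51 ± 0.09 and 1.61 ± 0.07 (SD, n = 5) differed by 1.11 ± 0.06 (SE), a fold change of 2.15 (1.98 to 2.34, adjusted p = 6.93e-07). Its probe, behind the largest fold change of the 10 genes in the loess ratios, lies at chr7:24452796-24452855 (mm7, minus strand).
Pld3 probe: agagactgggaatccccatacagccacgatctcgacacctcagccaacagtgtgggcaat
Pld4 had log2 ratios of -0.58, -0.30, -0.32, -0.55 and -0.38 in room air and -0.45, -0.27, -0.31, -0.17 and -0.52 with smoke. The groups overlapped, and smoke was the higher array on 4 of 5 slides. The difference was 0.08 ± 0.08 (SE), with a 95% interval of the fold change from 0.938 to 1.20 (adjusted p = 0.709), and -0.03 with median centring (adjusted p = 0.979). Whether Pld3 and Pld4 differ in their response was not tested. Pla1a had a larger difference than Pld3 with the scanner's log ratio (1.42 against 1.13) and with the lung channel alone scaled to its 75th percentile (1.44 against 1.21).

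Lpcat2 adds a fatty acid to lysophosphatidylcholine and an acetyl group to lyso-PAF, the last step of PAF synthesis in inflammatory cells. Its log2 ratios were 1.88, 1.02, 1.14, 0.89 and 1.22 in room air and 2.26, 2.12, 2.10, 2.01 and 2.06 with smoke. Room air replicate 1 again stood high, and the smoke arrays were close together. The means of 1.23 ± 0.38 and 2.11 ± 0.09 (SD, n = 5) differed by 0.88 ± 0.15 (SE), a fold change of 1.84 (1.46 to 2.32, adjusted p = 0.00462).

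Aoah, the acyloxyacyl hydrolase of phagocytes, removes fatty acids from bacterial lipopolysaccharide and also acts on phospholipids. Its log2 ratios were 0.06, -0.19, -0.40, -0.10 and -0.12 in room air and 0.25, 0.28, 0.25, 0.13 and 0.29 with smoke. The highest room air array, replicate 1, lay just below the lowest smoke array, replicate 4. The difference was 0.39 ± 0.08 (SE), a fold change of 1.31 (1.17 to 1.47, adjusted p = 0.00863). With median centring it was 0.34 (adjusted p = 0.06), and with the lung channel alone scaled to its 75th percentile 0.81 (adjusted p = 0.0768), while the scanner's log ratio gave 0.87 (adjusted p = 0.0242). When the probes of Aoah were averaged it was 0.19 (adjusted p = 0.0248). A further probe of Aoah was not well above background in either channel on any array, and no fold is given for it.

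**Figure D2:**
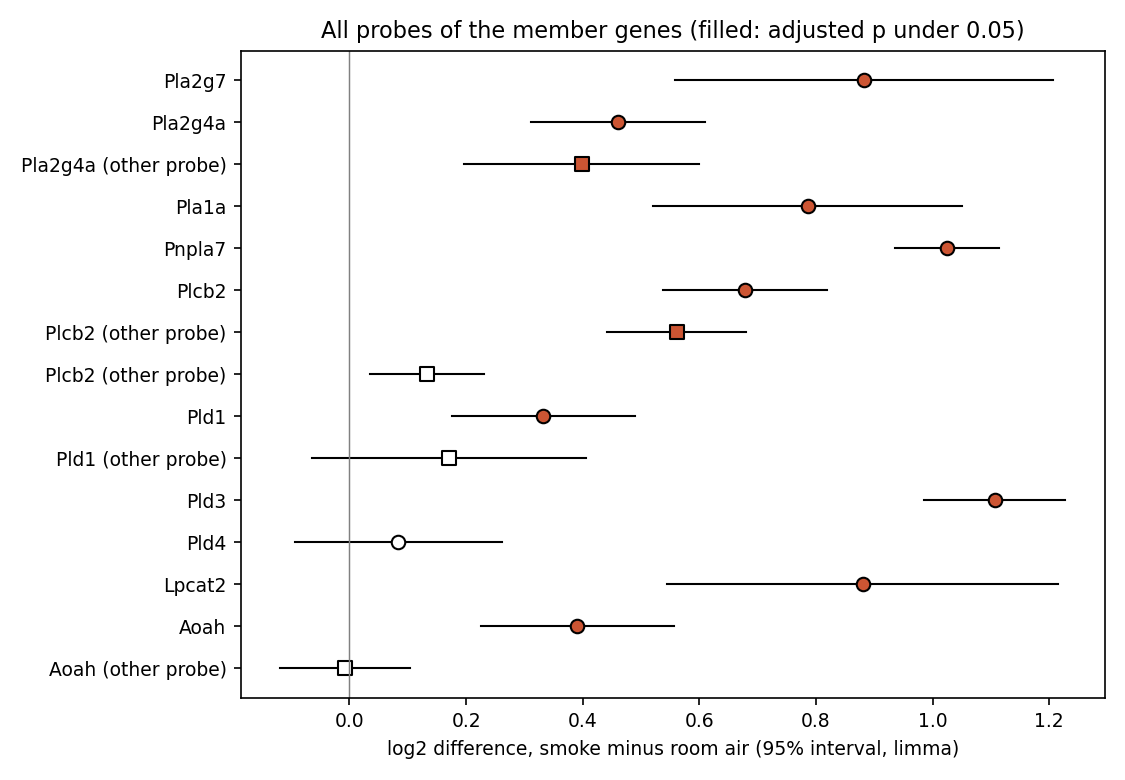
Log2 difference between smoke and room air (horizontal axis) with its 95% interval for all 15 probes of the 10 genes, circles for the brightest probe of a gene, squares for its other probes, filled where the adjusted p is under 0.05. Of the 15 probes, 11 are filled, and the open ones belong to Pld4, Plcb2, Pld1 and Aoah, the last not well above background on any array.

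Room air replicate 1 was the highest room air array for 4 of the 10 genes, Pla2g7, Pla1a, Lpcat2 and Aoah, as was replicate 2 for 4 others, Pla2g4a, Plcb2, Pld1 and Pld4, and replicate 5 for Pnpla7 and Pld3. Summed over the 7 measured neutrophil markers, the lung signal, in multiples of the 75th percentile of the array, was 192.6 in room air replicate 1 and 39.9, 30.3, 34.5 and 47.6 in replicates 2 to 5, against 93.9, 72.6, 54.2, 60.8 and 68.7 in the smoke arrays, so that room air replicates 2 to 5 lay below all smoke arrays and replicate 1 above them. Room air replicate 1 also had the highest room air sum of platelet markers (8.06, against 5.36 to 6.08 in replicates 2 to 5) and the highest room air mean log2 ratio in 8 of 19 lists of cell type markers, those of macrophages, monocytes, neutrophils, platelets, adipocytes, alveolar type 2, club and cardiac muscle cells. The brightest neutrophil marker was S100a9, with a difference of 0.16 between the groups (adjusted p = 0.852), and 1 of the 7, Mmp8, was higher with smoke (1.16, adjusted p = 0.021; adjusted p = 0.0562 without smoke replicate 1, and called in 6 of the 10 fits without 1 array). Ltf (0.90, adjusted p = 0.207) passed with the slide as a block (adjusted p = 0.0307). Without room air replicate 1, 3 of the 7 were called, Mmp8 (1.41, adjusted p = 0.00037), Ltf (1.22, adjusted p = 0.0137) and S100a8 (0.97, adjusted p = 0.00458). Every marker of this list was well above background. The summed signal weights bright probes most, and S100a9 had a mean lung signal of 44906 against 1235 for S100a8. The mean log2 ratio of the neutrophil list was 4.25 in room air replicate 1 and 2.39 to 2.77 in room air replicates 2 to 5. With smoke it was 2.99 to 3.66. The part of neutrophils or of any of these cells in the 4 genes was not tested. Without room air replicate 1, the differences were 1.02 for Pla2g7 (adjusted p = 5.36e-05), 0.88 for Pla1a (adjusted p = 0.000162), 1.04 for Lpcat2 (adjusted p = 8.63e-06) and 0.44 for Aoah (adjusted p = 0.00176).

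Macrophage markers moved with the smoke group. Of 10 measured, 8 were higher and 0 lower, against 4.95% and 3.27% of all genes. Among the 8, 6 were over 2-fold, and the median log2 difference of the list was 1.24. Their summed lung signal was 49.1, 50.1, 47.5, 44.9 and 49.0 times the 75th percentile in room air and 193.4, 207.8, 190.5, 177.1 and 214.7 times with smoke, so that the groups did not overlap. Their mean log2 ratio was 1.77 in room air replicate 1, 1.54 to 1.60 in the other room air arrays and 2.70 to 2.93 with smoke. The brightest marker was Chil3, a chitinase-like protein, with a difference of 2.12 ± 0.21 (SE, adjusted p = 0.000138). Its probe dominates the summed signal, with a mean lung signal of 54945 against 8913 for Marco, the next brightest. Cd68, a lysosomal membrane protein of macrophages, differed by 2.06 ± 0.06 (adjusted p = 6.92e-09) and Marco, a scavenger receptor of alveolar macrophages, by 2.60 ± 0.41 (adjusted p = 0.00248). Adgre1, Itgax and Mrc1 were 2.62, 2.53 and 2.20 times higher. Csf1r differed by 0.58 (adjusted p = 0.00128) and Fcgr1 by 0.51 (adjusted p = 0.0357), the latter called in 1 of the 10 fits without 1 array, with an adjusted p of 0.0898 without room air replicate 3. Siglecf (0.25, adjusted p = 0.312) and Mertk (-0.22, adjusted p = 0.211; 0.0351 with the slide as a block) did not pass, and every measured marker was well above background on all arrays. The part of macrophage number in the higher phospholipase ratios was not tested.

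**Figure D3:**
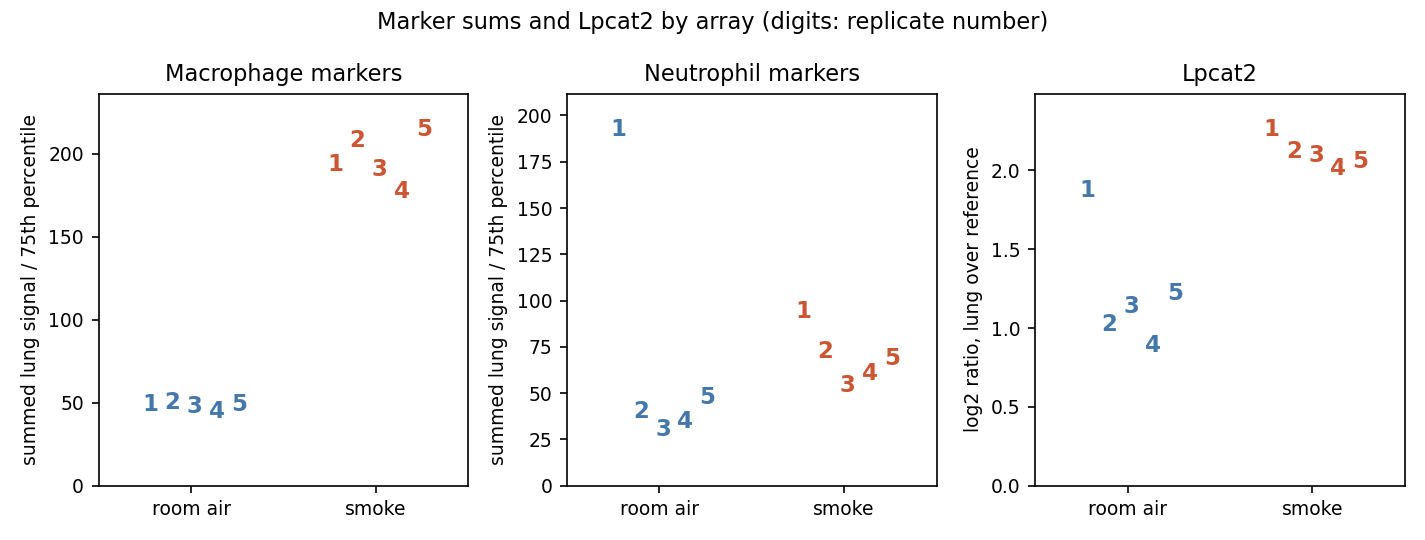
Summed lung signal of 10 macrophage markers (left) and 7 neutrophil markers (middle), in multiples of the 75th percentile, and the log2 ratio of Lpcat2 (right), for each array, with the digit giving the replicate number. Macrophage sums separate the groups (44.9 to 50.1 against 177.1 to 214.7), while in room air replicate 1 the neutrophil sum (192.6) and the Lpcat2 ratio (1.88) are both the highest of their group.

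Other cell types gave fewer calls. Over all lists 13 of 99 markers were higher (13.1%) and 7 lower (7.07%), against 4.95% and 3.27% of all genes. Of the 13 higher, 8 were macrophage markers. Single calls in lists this small are not read as a result about a cell type. In the monocyte list 1 of 4 markers was higher, Cx3cr1 (0.89, adjusted p = 0.0139), and the brightest was Nr4a1 (-0.26, adjusted p = 0.563), and in the conventional dendritic cell list 1 of 5 was higher, Flt3 (0.27, adjusted p = 0.016), the brightest being Zbtb46 (-0.22, adjusted p = 0.495). Platelet markers gave 1 of 4, Pf4 (1.06, adjusted p = 0.0015), and erythroid markers 1 of 4, Slc4a1 (1.29, adjusted p = 0.0144), with Hbb-bt the brightest (0.31, adjusted p = 0.699). Without the block no marker passed in the T cell (6), B cell (6), plasmacytoid dendritic cell (4), alveolar type 2 (6), alveolar type 1 (5), club and goblet (5) or ciliated (5) lists, whose brightest were Cd3d (0.35), Cd79b (0.32), Bst2 (-0.20), Sftpc (-0.13), Hopx (-0.06), Scgb1a1 (-0.20) and Tppp3 (-0.07). Lower with smoke were 2 of 5 fibroblast and smooth muscle markers, Pdgfra (-0.49, adjusted p = 5.95e-05) and Acta2, with Acta2 the brightest (-0.45, adjusted p = 0.00897), and 1 each of 4 natural killer, 6 mast cell and basophil, 5 endothelial, 4 adipocyte and 4 cardiac muscle markers, namely Prf1, Fcer1a, Pecam1, Cidec and Tnnt2. Of these, Fcer1a, Pecam1 and Tnnt2 were called in 1, 3 and 1 of the 10 fits without 1 array, with adjusted p up to 0.0884 and 0.119 without smoke replicate 5 and 0.119 without room air replicate 3. The brightest of these 5 lists were Gzma (-0.59, adjusted p = 0.357), Mcpt4 (0.07, adjusted p = 0.845), Cldn5 (-0.12, adjusted p = 0.654), Cidec (-1.02, adjusted p = 0.0105) and Myl7 (-0.07, adjusted p = 0.898).

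With the slide as a block 33 of the 99 markers of all 19 lists were called in place of 20, and 0 of the 20 were lost. The block raised the calls among all genes to a like degree, from 8.22% to 13.8%, against 20.2% and 33.3% of the markers. Besides Ltf, those added as higher were Cd3g (adjusted p = 0.00539) and Cd3d (0.0327) of T cells, Sftpd (0.0441) of alveolar type 2 cells, and Scgb3a1 (0.0383) and Muc5b (0.0474) of club and goblet cells. Besides Mertk, those added as lower were Nr4a1 (0.0121), Siglech (0.0232), Zbtb46 (0.042), Aqp5 (0.0266), Tek (0.0159) and Myh11 (0.0339). Without a block, leaving out room air replicate 1 also added Ccr2 (adjusted p = 0.028) and Muc5b (0.00758) as higher and Ncr1 (0.0324) as lower, room air replicate 4 Cpa3 as lower (0.0291), room air replicate 5 Cd5 as higher (0.003) and smoke replicate 4 Scgb3a1 as higher (0.0176). Summed lung signal kept the groups apart in 5 of the 19 lists, the mean log2 ratio in 1, that of macrophages. Besides macrophages, platelet sums were 5.36 to 8.06 in room air and 9.61 to 15.3 with smoke, endothelial sums 138 to 178 and 90.8 to 112, adipocyte sums 5.56 to 6.66 and 2.19 to 3.73, and natural killer sums 1.43 to 3.96 and 0.671 to 1.36, while the mean log2 ratios of these 4 lists overlapped. Within slides, the mean log2 ratios of natural killer, endothelial and plasmacytoid dendritic cell markers were lower on the smoke array of all 5 slides. Those of platelet and T cell markers were higher on all 5. Some of these slide differences were close to nil. Room air and smoke means were 5.01 and 5.00 for endothelial and 0.411 and 0.424 for platelet markers in replicate 2. They were 0.505 and 0.520 for platelet markers in replicate 3, and 0.673 and 0.676 for T cell markers in replicate 5. The adipocyte mean was lower on each slide but that of replicate 5, where it was 2.07 in room air and 2.18 with smoke. The part of these cells in the phospholipase ratios was not tested.

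The rest of the phospholipid pathway was examined through 13 lists with 134 measured genes. Of these, 20 were higher and 8 lower with smoke, or 14.9% higher against 4.95% of all genes and 5.97% lower against 3.27%. The lists were also chosen with earlier results of these data known, so this contrast partly reflects that choice. In the lung channel 10 of the 134 were well above background on no array, as were 5045 of the 27670 genes. Single lists are small, and with 1 higher gene those of head group synthesis (5.26%), lysophospholipases (8.33%) and secreted phospholipases A2 (9.09%) lie near the share of all genes. The median log2 difference was 0.03 over the 134 genes, and 0 of them were over 2-fold higher with an adjusted p under 0.05. The other 106 did not pass. In place of 28 calls, median centring gave 10. The lung channel alone gave 12 when scaled to its 75th percentile and 18 with quantiles. With the slide as a block all 28 kept their call and 14 more passed, 9 of them higher and 5 lower, which made 21.6% higher and 9.7% lower, while among all genes the block raised the shares to 7.51% and 6.27%. The counts by list in the next paragraphs are those without the block. Intracellular phospholipase A2 and PAF acetylhydrolase genes became 5 higher and 2 lower, with Pla2g4f (adjusted p = 0.00418), Pla2g15 (0.00801) and Pla2g6 (0.0493) added as higher and Pafah1b1 (0.0448) as lower. Phospholipase C genes became 4 higher and 4 lower, with Plcb4 (0.0125) and Plcl1 (0.00955), and secreted phospholipase A2 genes 3 higher and 1 lower, with Pla2g5 (0.0355) and Pla2g1b (0.042). Plb1 (0.0108) and Gde1 (0.0332) were also added as higher, Gpld1 (0.0203) and Cds2 (0.0289) as lower, and 2 receptors named below as higher. Some of these passed without the block when 1 array was left out: Pla2g5 (adjusted p = 0.0238) and Cds2 (0.0142) without room air replicate 1, Pla2g4f (0.0293) and Gde1 (0.0485) without room air replicate 3, Pla2g5 (0.0338) and Gpld1 (0.029) without room air replicate 4, Pla2g15 (0.0466) without smoke replicate 2 and Pla2g1b (0.028) without smoke replicate 5. So did other genes that the block did not add. Without room air replicate 1 these were Lipg as lower (-0.49, adjusted p = 0.0024), Gdpd1 as higher (0.0497), and Ptafr and Gna11, described below. Pafah1b3 passed as higher (0.0391) without room air replicate 4, and Plcxd3 as lower (0.0424) without smoke replicate 3.

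Of the secreted phospholipase A2 genes, 1 of 11 was higher and 1 lower. Pla2g2d, a secreted enzyme of dendritic cells and macrophages, rose from 1.18 ± 0.18 to 1.81 ± 0.21 (SD, n = 5), by 0.63 ± 0.11 (SE, adjusted p = 0.0049), whereas Pla2g12b differed by -0.19 (adjusted p = 0.0441). Intracellular phospholipase A2 and PAF acetylhydrolase genes gave 2 higher and 1 lower of 13: Pla2g4b (0.32, adjusted p = 0.00402), Plaat3 (0.31, adjusted p = 0.0057) and Pafah2 (-0.23, adjusted p = 0.0412). In the phospholipase A1 and lipase list 2 of 11 were higher, Pnliprp1, a pancreatic lipase-related gene, by 0.83 ± 0.10 (adjusted p = 0.000618) and Ddhd1 by 0.22 (adjusted p = 0.00519). Of 5 patatin-like genes 0 were higher and Pnpla5 was lower (-0.20, adjusted p = 0.0449). The calls of Pla2g12b, Pafah2 and Pnpla5 held in 2 of the 10 fits that left out 1 array, with adjusted p up to 0.105 without room air replicate 3, 0.107 without smoke replicate 5 and 0.112 without smoke replicate 5.

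Phospholipase C genes moved in both directions, 4 higher and 2 lower of 16. Plcg2, the gamma enzyme that acts below immune receptors in blood cells, rose from -0.07 ± 0.02 to 0.49 ± 0.09 (SD, n = 5; adjusted p = 5.98e-05), and Plcl2, a related protein without catalytic activity, from 0.46 ± 0.18 to 1.09 ± 0.15 (adjusted p = 0.00174). Plch1 (0.35, adjusted p = 0.00466) and Plcxd1 (0.30, adjusted p = 0.0165) were also higher. Plcb1, another enzyme of the beta class, fell from 1.77 ± 0.25 to 1.11 ± 0.24 (adjusted p = 0.013) and Plce1 was lower (-0.48, adjusted p = 0.01). Of the other 5 phospholipase D genes 1 was higher, Pld2, the second classical enzyme (0.28, adjusted p = 0.0475), which passed in 1 of 10 fits without 1 array and had an adjusted p of 0.108 without smoke replicate 3.

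Lysophospholipid acyltransferases gave 3 higher and 0 lower of 16: Mboat1 (0.37, adjusted p = 0.00556), Agpat5 (0.31, adjusted p = 0.016) and Gpam (0.28, adjusted p = 0.00425), the last an acyltransferase of glycerol phosphate. Among lysophospholipases and the autotaxin family 1 of 12 was higher, Abhd12, a lipase for lysophosphatidylserine (0.52, adjusted p = 0.0341; called in 5 of 10 fits without 1 array, with an adjusted p of 0.0805 without smoke replicate 5). Head group synthesis gave 1 of 19, Pisd, the mitochondrial phosphatidylserine decarboxylase (0.31, adjusted p = 0.00803), and sphingomyelinases 1 of 6, Smpdl3b (0.59, adjusted p = 0.000402). Of 6 phosphatidate phosphatases 3 were lower: Plpp3 fell from 2.12 ± 0.13 to 1.36 ± 0.21 (SD, n = 5; adjusted p = 0.000881), and Plpp1 (-0.42, adjusted p = 0.01) and Lpin2 (-0.39, adjusted p = 0.00562) were lower. Lpin1 was higher (0.21, adjusted p = 0.0275; called in 3 of 10 fits without 1 array, with an adjusted p of 0.0703 without smoke replicate 1).

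**Figure D4:**
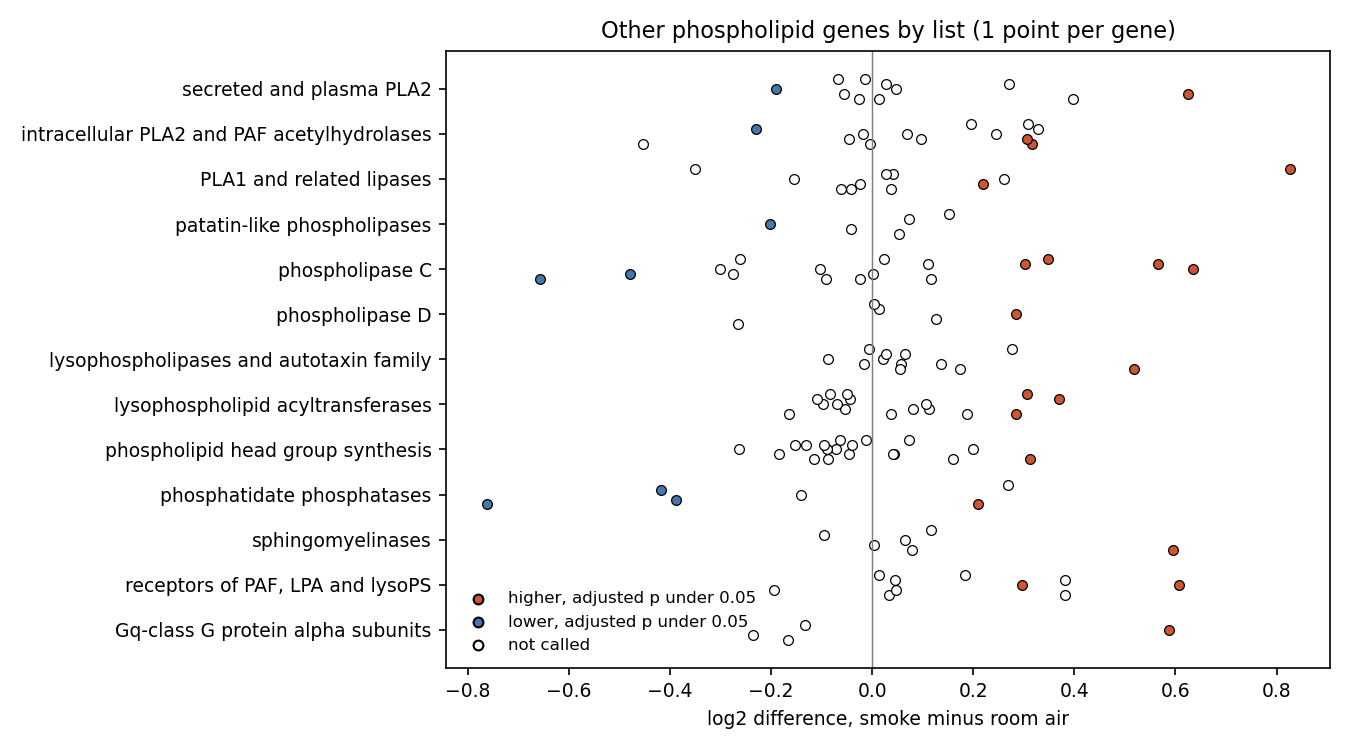
Log2 difference between smoke and room air (horizontal axis) of the 134 other phospholipid genes, 1 point per gene, in rows by list, red for 20 genes higher and blue for 8 lower at an adjusted p under 0.05. Phospholipase C genes lie on both sides of 0, and 3 of 6 phosphatidate phosphatases are among the blue points.

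Receptors for the lipids these enzymes make or remove were also on the array. Of 10 measured, 2 were higher and 0 lower: Gpr34, a receptor of lysophosphatidylserine, rose from 0.59 ± 0.20 to 1.19 ± 0.26 (SD, n = 5; adjusted p = 0.0151), and Lpar6, a receptor of lysophosphatidic acid, from 0.25 ± 0.12 to 0.55 ± 0.12 (adjusted p = 0.0295). The call of Lpar6 held in 6 of 10 fits without 1 array, with an adjusted p of 0.0742 without room air replicate 3. Ptafr, the receptor of PAF, had a difference of 0.18 ± 0.16 (SE) with overlapping groups (adjusted p = 0.675), and of 0.36 without room air replicate 1 (adjusted p = 0.0192). Lpar3 (0.38, adjusted p = 0.168) and P2ry10 (0.38, adjusted p = 0.195) passed with the slide as a block, at adjusted p of 0.00616 and 0.00471. Lpar1, Lpar2 and Lpar4 differed by 0.05, 0.01 and -0.19 and did not pass, and Gpr174 and Gpr132 were not well above background on any array.

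Of 4 G protein alpha subunits of the Gq class, which activate phospholipase C of the beta class, 1 was higher. Gna15, the subunit of blood cells, rose from 0.14 ± 0.13 to 0.72 ± 0.16 (SD, n = 5), by 0.59 ± 0.09 (SE, adjusted p = 0.00163). Gnaq, Gna11 and Gna14 had differences of -0.13, -0.17 and -0.24, with adjusted p of 0.277, 0.202 and 0.548, and Gna11 passed without room air replicate 1 (-0.23, adjusted p = 0.0177).

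The genes with the profile most like those of Pnpla7 and Pld3 were sought among 17127 genes well above background in the lung channel on all 10 arrays, by the root mean square distance between log2 ratios centred on the room air mean. For Pnpla7 these were 5730416F02Rik, a gene known only by its clone name (distance 0.08), Nckap1l, an actin regulator of blood cells (0.08), and Lpxn, an adaptor of focal adhesions (0.08), with fold changes of 2.12, 1.98 and 2.12. For Pld3 they were Fam20c, a kinase of secreted proteins (0.08), Pnpla7 (0.09) and 5730416F02Rik (0.09). Pnpla7 was thus the second nearest to Pld3, while Pld3 was not among the 3 nearest to Pnpla7. This distance mostly reflects the size of the smoke difference and the spread within groups. Genes with a like difference and a small spread therefore lie near by construction.

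Promoters were compared because 9 of the 10 genes were higher together. RefSeq promoters (GRCm38.p6) were at hand for 9 of the 10 genes, Pld4 included, with no entry for Pla1a, 11 promoters in all, and the 250 bases before each start were searched on both strands for GAGGAA, the core bound by PU.1 of myeloid cells, CACGTG, the E-box core bound by TFEB and related factors, and TGACNNNGC, the core of the antioxidant response element. GAGGAA was in 2 of the 11 (Plcb2 and Pld1) and in 23.3% of 32851 promoters, CACGTG in 1 (Pnpla7) and 6.02%, and TGACNNNGC in 1 (Pnpla7) and 10.2%. The promoters of Pnpla7, chr2:24975783-24976032 on the plus strand, and Plcb2, chr2:118728439-118728688 on the minus strand, are shown with these matches in capitals. A match is a run of letters and not a measured binding site.
Pnpla7 promoter: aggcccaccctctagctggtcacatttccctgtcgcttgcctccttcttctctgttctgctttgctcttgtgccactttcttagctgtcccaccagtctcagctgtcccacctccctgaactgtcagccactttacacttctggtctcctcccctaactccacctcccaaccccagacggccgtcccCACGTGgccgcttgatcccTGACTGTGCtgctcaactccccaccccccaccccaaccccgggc
Plcb2 promoter: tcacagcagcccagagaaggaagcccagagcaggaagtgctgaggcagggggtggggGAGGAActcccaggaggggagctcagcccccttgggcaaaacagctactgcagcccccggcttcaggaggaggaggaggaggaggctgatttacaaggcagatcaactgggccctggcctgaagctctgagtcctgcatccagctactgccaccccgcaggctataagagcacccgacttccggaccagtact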

How the data were processed

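Lung RNA of 5 smoke-exposed and 5 room air mice was measured on 10 2-colour arrays, grouped by the sample labels. The authors deposited scanner output of Agilent Feature Extraction (9.5.3.1 per the file headers, 9.1 per the labels) with the intensity of each spot and its background in both channels, well-above-background, saturation and outlier flags (other values), and a log10 ratio made by the scanner software. A further deposited table gives log2 values averaged over both channels. Set against the scanner files within 1e-04, its 286449 values match the array of the same number but opposite group in 286449 cases and the array of their own label in 286, so it served only as an alternative.

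Mean intensities were corrected with normexp (offset 50, all spots), control spots were left out, ratios were normalized by loess, 83 to 144 outlier spots per array were set missing, and spots of a probe were averaged. Probes were named through accession (22951), current symbol (6659) or synonym (3109) in the RefSeq table, or kept the file name (8455). A gene was represented by its probe with the brightest mean lung signal. The comparison used limma 3.58.1 (lmFit, then eBayes; R 4.3.3), and its p-values, from both tails, were adjusted by the Benjamini-Hochberg procedure across 41173 probes. In the lung channel 67.8 to 76.7% of spots were well above background in room air and 64.9 to 77.5% with smoke; the number of arrays limits the precision. The limma fit was tested on simulated log ratios with normal noise. The largest planted changes were recovered, and most of the smallest ones, themselves several times the SD of the noise, were not. The background correction, loess and averaging steps before the fit were not tested in this way.

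Each of the 5 slides, scanned on 4 days, holds the arrays of 1 replicate number, smoke in place 1 and room air in place 2, so place and group cannot be told apart. Deviations from the group means correlated by 0.157 to 0.55 within slides, against a median of -0.124 and a highest value of 0.205 between slides. The lowest value within slides, 0.157 for replicate 1, is under the highest between slides, so the slide pairs the samples unevenly. It was fitted as a replicate block among 23 alternatives. These also changed the test, thresholds, dim-probe filter, background correction, normalization, channel, probe averaging and table, and left out each array. SEs, intervals and adjusted p come from the fit without the block, except where the block or another setting is named.

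Named genes were the 10 members; list genes with an adjusted p under 0.05; receptors and G proteins of the lists; of each marker list the brightest gene and those over 2-fold with an adjusted p under 0.05; and the 3 nearest profiles of each member over 2-fold. Other marker genes and list genes called only with the block lie outside this rule and were named after their values were seen. Members and lists were chosen with earlier results of these data known. Probe positions are those of the array design in mm7, for which no annotation was used here.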

Additional observations from a re-analysis of the deposited data

Results flagged for a closer look

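Within the groups of 5 arrays, 2 of the 20 groups of member values held an array far from the other 4, where chance gives about 1 in 20. For Pla1a, smoke replicate 1 had a log2 ratio of -0.46, below the other smoke arrays at -0.24 to -0.16, and its gap to the nearest was 0.738 of the range of the group. For Aoah, smoke replicate 4 had 0.13 against 0.25 to 0.29, a gap of 0.746 of the range. Both values stayed above every room air array of the same gene. The high room air replicate 1 of Pla2g7 and Lpcat2 did not reach this limit.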

How the results depend on the processing

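Of 10 member genes 9 were called, also with the replicate block, and leaving out each array gave 9 to 9. Median centring and the lung channel scaled to its 75th percentile called 6 members each, averaging of probes 8. The exact two-sided Wilcoxon test, the methods' test, called 0 members, 0 other phospholipid genes and 0 probes, since its smallest p is 0.00794 and its lowest adjusted p was 0.115; unadjusted p were under 0.05 for 9 members, 38 of the 134 others and 5446 probes. At over 2-fold 2 members, 0 others and 215 probes passed, and at over 1.5-fold 6 members, 8 others and 790 probes. With limma and no fold threshold, unadjusted p were under 0.05 for 52 of the others. The replicate block raised the 2906 called probes to 5019 and changed no other call of the members. Median centring gave 1434 probes and 10 others in place of 28, the lung channel alone 1759 and 12 with the 75th percentile and 18 others with quantiles; the cause was not tested. Leaving out single arrays gave 2102 to 3660 probes and 22 to 33 others. Of called genes 60.2% were higher, but 48.6% with median centring.

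The authors' table with the labels' groups reversed 9 members: Pla2g7 -0.43, Pla2g4a -0.11, Pla1a -0.62, Pnpla7 -0.52, Plcb2 -0.35, Pld1 -0.18, Pld3 -0.55, Lpcat2 -0.47 and Aoah -0.26. Its columns hold the other group's arrays, averaged over both channels. With limma it called 0 members, 0 others and 16 probes, against 2, 3 and 581 at an unadjusted p under 0.05. Signal near background and 5 arrays per group limit small differences, so that a gene that did not pass is not shown to be unchanged, and dim probes have compressed ratios.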
